A study of Homo sapiens with 5 samples.

Results

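The microRNA machinery was examined as 10 genes of the deposited TPM table, taken by gene symbol from its 58174 genes: DROSHA, DGCR8, XPO5, DICER1, TARBP2, AGO1, AGO2, AGO3, AGO4 and TNRC6A. All 10 were found and all 10 passed the filter of a mean TPM of at least 1. The 5 libraries were made by RNA sequencing of Ishikawa, a human cell line established from an endometrial carcinoma. In 3 libraries (sh-LINC00958) the cells had received a lentiviral short hairpin RNA against the long non-coding RNA LINC00958, and in 2 libraries (sh-NC) the cells carried the negative control. From 72 h after infection, infected cells were selected with puromycin (2.5 µg/ml), so both groups underwent infection and selection. How many hairpins were used is not in the labels. Nor do they say whether libraries of 1 group are separate cultures, and p-values here therefore reflect the spread between the samples alone, which may be technical.

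MicroRNAs are made in steps. The nuclear RNase III enzyme Drosha, with its RNA-binding partner DGCR8, cuts a hairpin out of the primary transcript, and Exportin-5 carries the hairpin to the cytoplasm. There Dicer, an RNase III enzyme as well, works with the RNA-binding protein TRBP (TARBP2) to cut the hairpin into a short duplex. One strand is loaded into an Argonaute protein, and Argonaute with a GW182 protein such as TNRC6A recruits deadenylases and decapping factors to target mRNAs. AGO2 is the human Argonaute best known for slicing its targets. A hairpin RNA used for silencing enters the same route at the export and Dicer steps, and both groups carried such a vector.

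TPM is a transcript abundance scaled for gene length and to 1 common total per library, so levels can be set beside each other between genes, and a value depends on all the other RNAs in its library. TPM does not give the sequencing depth, which is unknown, so counting error has no interval here. LINC00958 measured 58.4 to 67.2 TPM in sh-LINC00958 and 119.3 to 137.4 TPM in sh-NC (log2 difference -0.99, limma adjusted p = 0.0119), and the groups did not overlap. Of 9 epithelial and Müllerian markers 0 were at 0, and their summed level was 2460 to 2630 TPM in sh-LINC00958 and 2480 TPM in both sh-NC libraries. That sum covers markers that differed either way. Of the 9, KRT18 was called higher, as were 4.12% of all tested genes. Without overlap, 3 others were higher and 3 lower (EPCAM, PAX8 and SOX17), beside 24.4% higher and 25.5% lower over all tested genes. Once the trend over transcript GC content and length was removed, PAX8 was called lower and KRT18 was no longer called (limma adjusted p = 0.0634). The summed levels of 6 fibroblast, 6 blood and 6 endothelial markers stayed at or under 7.5 TPM in each library, with DCN, CD3E and KDR at 0 throughout. In bulk RNA a change in the number of cells of a type and a change in RNA per cell cannot be told apart.

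The machinery genes themselves carry microRNA hairpins, and their mature sequences are shown because DGCR8 mRNA is a known substrate of the Drosha complex. RefSeq (GRCh38.p14) places MIR3618 in an exon of DGCR8 outside the coding part and MIR1306 in a coding exon of DGCR8, both on the gene's own strand. MIR3173 lies in an intron of DICER1, again on the gene's own strand. The capitals mark the seed (bases 2 to 8), and no 2 of these seeds were the same.
hsa-miR-3618: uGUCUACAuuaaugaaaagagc
hsa-miR-1306-5p: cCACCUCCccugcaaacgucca
hsa-miR-1306-3p: aCGUUGGCucugguggug
hsa-miR-3173-5p: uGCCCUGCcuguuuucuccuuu
hsa-miR-3173-3p: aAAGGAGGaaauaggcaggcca
An mRNA library does not measure mature microRNAs. MIR3618 was listed at 0.0187 TPM or less in all 5 libraries. MIR1306 was listed at 0.184, 0.214 and 0.212 TPM in sh-LINC00958 and at 0.283 and 0.330 TPM in sh-NC. These levels lay below the filter, so the difference was not tested. The host DGCR8 stood above 43 TPM in every library.

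Promoter windows from RefSeq (250 bases before to 50 after an annotated start) were found for 9 of the 10 genes. None was found for AGO2, so its promoter was not searched. Those of the 2 RNase III genes are shown because their mRNAs lay on opposite sides of the control level, although the difference of DROSHA was not called. The DICER1 window is the one richest in CG dinucleotides among its 5 annotated starts, chr14:95157480-95157779 on the minus strand, and the DROSHA window is chr5:31532044-31532343 on the minus strand, both GRCh38.p14. Capitals mark CG dinucleotides.
DICER1: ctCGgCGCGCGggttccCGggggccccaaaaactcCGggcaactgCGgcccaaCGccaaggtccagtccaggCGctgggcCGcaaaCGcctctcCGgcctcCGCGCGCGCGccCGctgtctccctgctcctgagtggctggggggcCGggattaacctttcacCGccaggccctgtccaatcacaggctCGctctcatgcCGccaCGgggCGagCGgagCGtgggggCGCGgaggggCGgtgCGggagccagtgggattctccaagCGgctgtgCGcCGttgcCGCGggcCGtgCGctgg
DROSHA: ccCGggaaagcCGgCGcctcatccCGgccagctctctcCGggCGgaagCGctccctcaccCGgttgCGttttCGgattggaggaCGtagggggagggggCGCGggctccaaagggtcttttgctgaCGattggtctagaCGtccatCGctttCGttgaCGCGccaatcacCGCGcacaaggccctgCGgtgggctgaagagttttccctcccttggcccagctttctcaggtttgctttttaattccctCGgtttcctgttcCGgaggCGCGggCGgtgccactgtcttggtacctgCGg
The DICER1 window held 37 CG dinucleotides and the DROSHA window 28, against a median of 14 over 35116 windows of 300 bases, of which 96.0% held at least 1. The other DICER1 windows held 0 to 15. Both strands were searched for the E2F spellings TTTCCCGC (in 1.63% of all windows) and TTTGGCGC (0.652%), the AP-1 site TGANTCA (7.71%), the ETS site CCGGAAGT (4.14%) and the E-box CACGTG (7.26%), none of which overlaps another in the members' windows. Neither printed window held any of these letters. In all 15 windows of the 9 genes there were 2 matches, TGANTCA in the DICER1 window at chr14:95133454-95133753 and CCGGAAGT in the TNRC6A window at chr16:24729401-24729700. The gene-level table does not say which start is used.

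Across the 10 genes, AGO2 and DICER1 fell in sh-LINC00958 and 0 rose. These were limma tests on log2(TPM + 1) over 17049 genes with Benjamini-Hochberg adjustment and a threshold of 0.05. Of all tested genes 5.68% were called lower and 4.12% higher, 9.8% in either direction. Without adjustment, 3 of the 10 genes had a p under 0.05, AGO4 being the other, beside 30.7% of all tested genes, so that share was the background one. The groups did not overlap for 4 genes lower in sh-LINC00958 (AGO2, AGO3, AGO4 and DICER1) and for 1 higher (DROSHA), while 25.5% of all tested genes were lower and 24.4% higher without overlap, 49.9% in all. The median log2 fold change of the 10 genes was -0.10, against 0.00 over all tested genes. The count of 2 is small, and leaving out any library except sh-LINC00958 replicate 2 brought it to 0. A log2 difference, here and below, is the log2 fold change of TPM + 1 in sh-LINC00958 minus sh-NC, and for genes at low levels this scale gives too small a change.

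**Figure D1:**
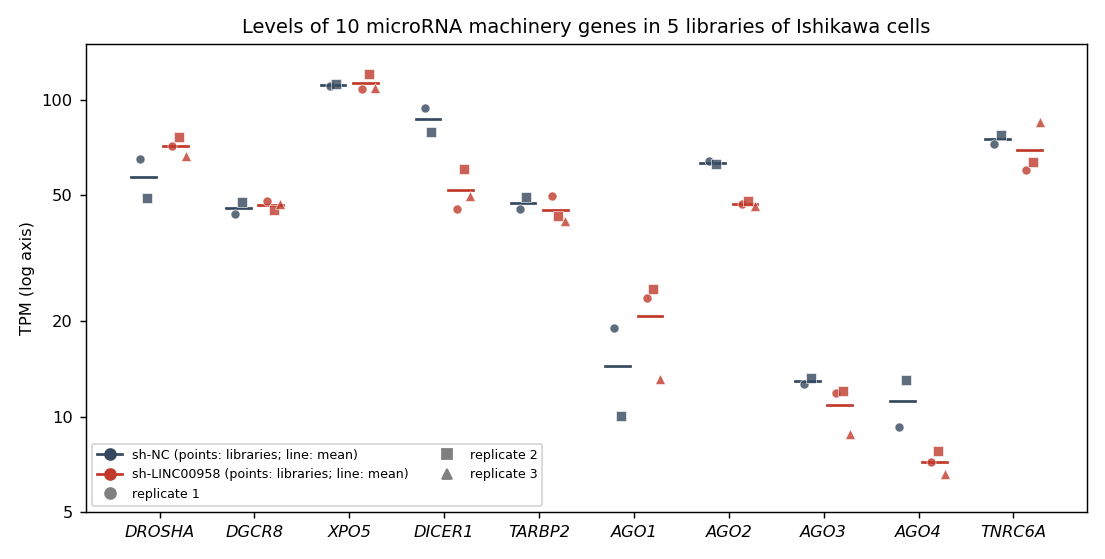
TPM (log axis) of each of the 10 genes, 1 point per library with the replicate number as the symbol shape, and a line at the mean of each group (sh-NC, n = 2; sh-LINC00958, n = 3). AGO2 and DICER1 are lower in every sh-LINC00958 library than in either sh-NC library, and XPO5, DGCR8 and TARBP2 overlap.

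The nuclear step showed no call. DROSHA (ENSG00000113360, chromosome 5, 31400497 to 31532196, minus strand, GRCh38 here and below) measured 71.7, 76.2 and 66.2 TPM in sh-LINC00958 and 65.1 and 48.9 TPM in sh-NC. All 3 sh-LINC00958 values lay above both controls, and the nearest pair, 66.2 and 65.1 TPM, was almost level. The mean was 71.4 ± 5.01 TPM (SD, n = 3) in sh-LINC00958 and 57.0 ± 11.5 TPM (SD, n = 2) in sh-NC, a log2 difference of 0.33 (limma adjusted p = 0.174, 95% limits -0.01 and 0.67). The control libraries set that value, since the fitted DROSHA difference moved to 0.13 when sh-NC replicate 2 was left out and to 0.53 when sh-NC replicate 1 was. DGCR8, the double-stranded RNA-binding subunit of the same complex (ENSG00000128191, chromosome 22, 20080232 to 20111877, plus strand), measured 47.8, 44.9 and 46.8 TPM against 43.5 and 47.6 TPM. Its groups overlapped, and the interval of its log2 difference ran from -0.18 to 0.24. The ratio of DROSHA to DGCR8 was 1.49, 1.68 and 1.41 in sh-LINC00958 and 1.49 and 1.03 in sh-NC.

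The export gene was not called, and its interval was narrow. XPO5, which encodes Exportin-5 (ENSG00000124571, chromosome 6, 43522330 to 43576075, minus strand), was the most abundant of the 10 mRNAs in both groups. It measured 108.5, 120.4 and 109.0 TPM in sh-LINC00958 and 110.3 and 112.1 TPM in sh-NC, with a log2 difference of 0.02 (95% limits -0.18 and 0.21). An exon of XPO5 overlaps the opposite-strand gene POLR1C by up to 129 nt in GENCODE 29, and POLR1C stood at 47.2 to 52.4 TPM. The strand setting of the counting is not known from the labels, so reads of that overlap cannot be assigned.

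DICER1 fell, with the lowest fitted value of the 10 genes for TPM as deposited. AGO4, which was not called, was lower than DICER1 without sh-NC replicate 1 (-0.78 against -0.61) and level with it once the trend over GC content and length was removed (-0.47 for both). DICER1 (ENSG00000100697, chromosome 14, 95086228 to 95158010, minus strand) measured 45.1, 60.5 and 49.8 TPM in sh-LINC00958 and 94.4 and 79.0 TPM in sh-NC. The highest sh-LINC00958 library, replicate 2, still lay below the lower control. Mean DICER1 was 51.8 ± 7.85 TPM (SD, n = 3) against 86.7 ± 10.8 TPM (SD, n = 2), which is 59.8% of the control level. Fitted on the log2 scale, DICER1 differed by -0.74 with an SE of 0.149 (limma adjusted p = 0.0381, 95% limits -1.10 and -0.37). For DICER1 the exact permutation p (two-sided) was 0.1, and no smaller value is possible with 3 and 2 libraries. TARBP2, which encodes the Dicer partner TRBP (ENSG00000139546, chromosome 12, 53500921 to 53506431, plus strand), measured 49.6, 43.1 and 41.5 TPM against 45.3 and 49.1 TPM, and its groups overlapped (log2 difference -0.08, 95% limits -0.34 and 0.18). Antisense DICER1-AS1, which shares up to 80 nt of exon with DICER1, was at 4.59 TPM or less in every library.

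The order of the 2 RNase III mRNAs differed between the groups. In sh-NC the ratio of DICER1 to DROSHA, computed on TPM + 1, was 1.44 and 1.60, and in sh-LINC00958 it was 0.635, 0.796 and 0.756. DICER1 was thus the more abundant of the pair in both control libraries and the less abundant in all 3 sh-LINC00958 libraries. The mean log2 ratio was -0.46 ± 0.171 (SD, n = 3) against 0.60 ± 0.109 (SD, n = 2), a difference of -1.07 (exact permutation p = 0.1, and 0.4 after Benjamini-Hochberg adjustment over the 6 ratios tested). The DICER1 to TARBP2 log2 ratio differed by -0.66 without overlap (exact permutation p = 0.2, adjusted 0.4), and that of DROSHA to DGCR8 by 0.30 with overlap (exact permutation p = 0.2, adjusted 0.4). No ratio could pass a threshold of 0.05 in a design whose smallest p is 0.1. Leaving out any 1 library kept the DICER1 to DROSHA difference between -0.97 and -1.15, and brought that of DROSHA to DGCR8 to 0.03 without sh-NC replicate 2. With the trend over transcript GC content and length removed, the log2 difference of DICER1 was -0.47 and that of DROSHA 0.37. The ratios were not tested after that removal.

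Among the Argonautes, AGO2 fell. AGO2 (ENSG00000123908, chromosome 8, 140520156 to 140635619, minus strand) measured 46.9, 47.8 and 46.1 TPM in sh-LINC00958 and 63.9 and 62.6 TPM in sh-NC. The libraries of each group lay within 2 TPM of each other, and the groups were far apart. Mean AGO2 was 46.9 ± 0.877 TPM (SD, n = 3) against 63.2 ± 0.894 TPM (SD, n = 2), which is 74.2% of the control level. Fitted on the log2 scale, AGO2 differed by -0.42 with an SE of 0.0758 (limma adjusted p = 0.0305, 95% limits -0.61 and -0.24). For AGO2 the fold stayed between -0.41 and -0.44 when any 1 library was left out, while its adjusted p ranged from 0.032 to 0.154.

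The other Argonautes lie in tandem on the plus strand of chromosome 1, in the order AGO4 (35808172 to 35857890), AGO1 (35869808 to 35930528) and AGO3 (35930718 to 36072500), and 0 of these 3 passed. AGO4 (ENSG00000134698) measured 7.16, 7.79 and 6.57 TPM against 9.30 and 13.05 TPM, lower in every sh-LINC00958 library (log2 difference -0.56, limma adjusted p = 0.0903, 95% limits -0.98 and -0.14). AGO3 (ENSG00000126070) measured 11.9, 12.0 and 8.79 TPM against 12.6 and 13.2 TPM, apart by under 1 TPM at the nearest pair (log2 difference -0.24, 95% limits -0.63 and 0.15). AGO1 (ENSG00000092847) was the most variable of the 10 on the log2 scale (SE 0.358), though not in TPM. It measured 23.7, 25.4 and 13.2 TPM against 19.0 and 10.0 TPM, with a log2 difference of 0.50 and an interval of -0.38 to 1.38. Its spread within each group was about as wide as the difference between them. Within sh-LINC00958 these 3 neighbours ranked the libraries alike, with replicate 2 the highest and replicate 3 the lowest. That order was not particular to them, as AGO2 (chromosome 8) and DROSHA (chromosome 5) had it too. Within sh-NC the 3 neighbours did not rank the libraries alike, as replicate 2 had the lower AGO1 and the higher AGO3 and AGO4. Single libraries moved these values. The AGO4 difference was -0.34 when sh-NC replicate 2 was left out and -0.78 when sh-NC replicate 1 was. The AGO1 difference was 0.07 and 0.93 with the same libraries left out, and 0.78 without sh-LINC00958 replicate 3. For AGO3 it was -0.10 without sh-LINC00958 replicate 3.

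Summed over the 4 paralogs, Argonaute mRNA stood at 89.7, 93.0 and 74.6 TPM in sh-LINC00958 and at 105.0 and 98.9 TPM in sh-NC, a mean of 85.8 ± 9.82 TPM (SD, n = 3) against 102.0 ± 4.15 TPM (SD, n = 2; exact permutation p = 0.2). AGO2 made up 52.3%, 51.4% and 61.8% of that sum in sh-LINC00958 and 61.0% and 63.3% in sh-NC. The groups overlapped in this share, as sh-LINC00958 replicate 3, which had little AGO1, lay between the controls (exact permutation p = 0.3). AGO1 made up 26.5%, 27.3% and 17.6% against 18.1% and 10.1%, and AGO3 11.8% to 13.4% in all 5 libraries. The AGO4 share alone did not overlap, at 7.99%, 8.37% and 8.81% against 8.88% and 13.2%, though its nearest pair was almost level (exact permutation p = 0.1, the smallest possible). Whether the change of AGO2 differed from those of its paralogs was tested by ratios, and the groups overlapped in each. The AGO2 log2 ratio differed by -0.92 to AGO1, -0.18 to AGO3 and 0.14 to AGO4 (exact permutation p = 0.3, 0.4 and 0.7, adjusted 0.45, 0.48 and 0.7).

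**Figure D2:**
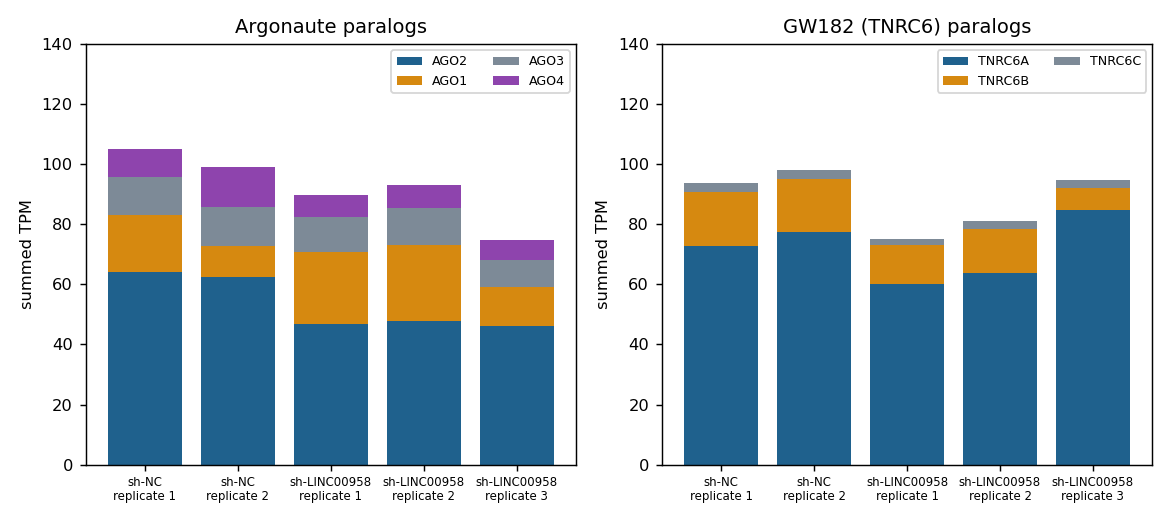
Summed TPM of the 4 Argonaute paralogs (left) and the 3 GW182 paralogs (right) in each library, with 1 stacked bar per library and the colours giving each paralog's part. The TPM of AGO2 is lower in the 3 sh-LINC00958 libraries than in either control, while its share of the sum overlaps between the groups. TNRC6B is small in sh-LINC00958 replicate 3.

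GW182 proteins connect Argonaute to the deadenylases. TNRC6A (ENSG00000090905, chromosome 16, 24610209 to 24827632, plus strand) measured 60.2, 63.6 and 84.8 TPM in sh-LINC00958 and 72.7 and 77.3 TPM in sh-NC. The controls lay inside the sh-LINC00958 range (log2 difference -0.12, 95% limits -0.51 and 0.26), and single libraries moved that value to between -0.27 and -0.03. TNRC6A made up 77.7% to 89.7% of the summed mRNA of the 3 paralogs. In sh-LINC00958 replicate 3 its share was the highest and that of TNRC6B the lowest, at 7.61% against 17.1% to 19.1% elsewhere.

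By level, the genes formed an upper and a lower tier. In sh-NC the order was XPO5, DICER1, TNRC6A, AGO2, DROSHA, TARBP2, DGCR8, AGO1, AGO3 and AGO4. The ranges over libraries were separate between XPO5 and DICER1, DICER1 and TNRC6A, TNRC6A and AGO2, and DGCR8 and AGO1, and the other neighbours overlapped. In sh-LINC00958 the order was XPO5, DROSHA, TNRC6A, DICER1, AGO2, DGCR8, TARBP2, AGO1, AGO3 and AGO4. There XPO5 was separate from DROSHA, TARBP2 from AGO1, AGO1 from AGO3 and AGO3 from AGO4, while the mRNAs from DROSHA down to TARBP2 each overlapped the next. The 3 Argonautes of chromosome 1 were the lowest in both groups, at 6.57 to 25.4 TPM.

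Transcript composition moved with the fold changes. Tested genes were split into 4 equal GC classes by their longest GENCODE 29 transcript. In the lowest class (23.1% to 42.0% GC), where DICER1 (39.2%) and AGO3 (38.9%) lie, the median log2 difference was -0.29 and 15.6% of genes were called lower and 1.08% higher. In the second class (42.0% to 48.2%), with AGO1, AGO2, AGO4, DROSHA and TNRC6A, the median was -0.06 and 4.59% were called lower and 2.26% higher. DGCR8 and XPO5 lie in the third (median 0.09, with 1.81% called lower and 4.85% higher) and TARBP2 (60.8%) in the highest (median 0.18, with 0.706% lower and 8.33% higher). Once the trend over GC content and length had been removed from each library, AGO2 was still called at a log2 difference of -0.42 (limma adjusted p = 0.033, 95% limits -0.58 and -0.26), beside 2.5% of all genes called lower and 2.14% higher. DICER1 then stood at -0.47 (95% limits -0.78 and -0.16) and was not called (limma adjusted p = 0.0964). AGO3 moved from -0.24 to 0.00, and TARBP2 from -0.08 to -0.29 (limma adjusted p = 0.167, 95% limits -0.55 and -0.03).

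**Figure D3:**
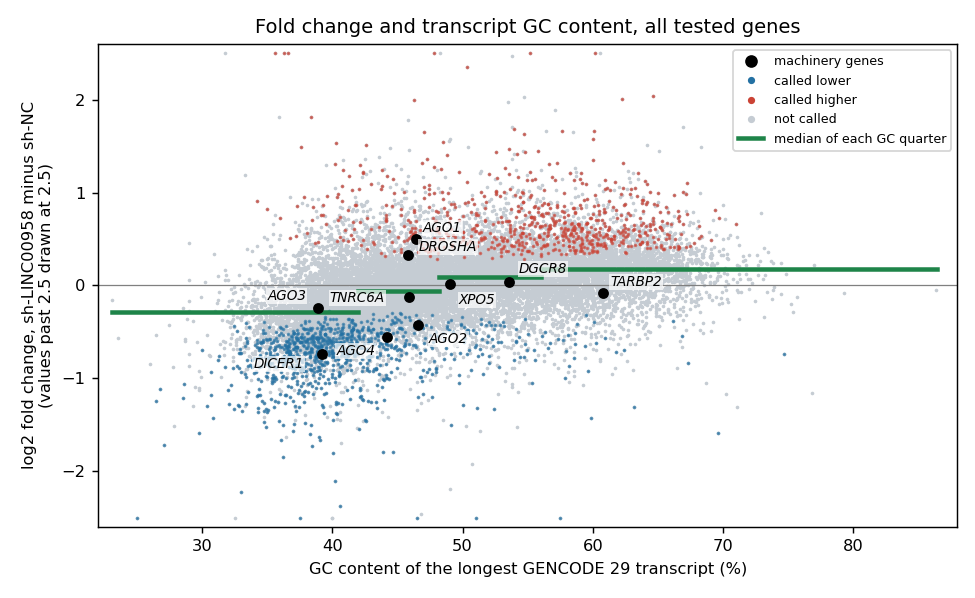
Log2 difference of every tested gene against the GC content (%) of its longest transcript, with called genes coloured, the 10 machinery genes in black and a green line at the median of each GC class. DICER1, at 39.2% GC, lies below a class median of -0.29, and AGO2, at 46.6%, below one of -0.06.

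**Figure D4:**
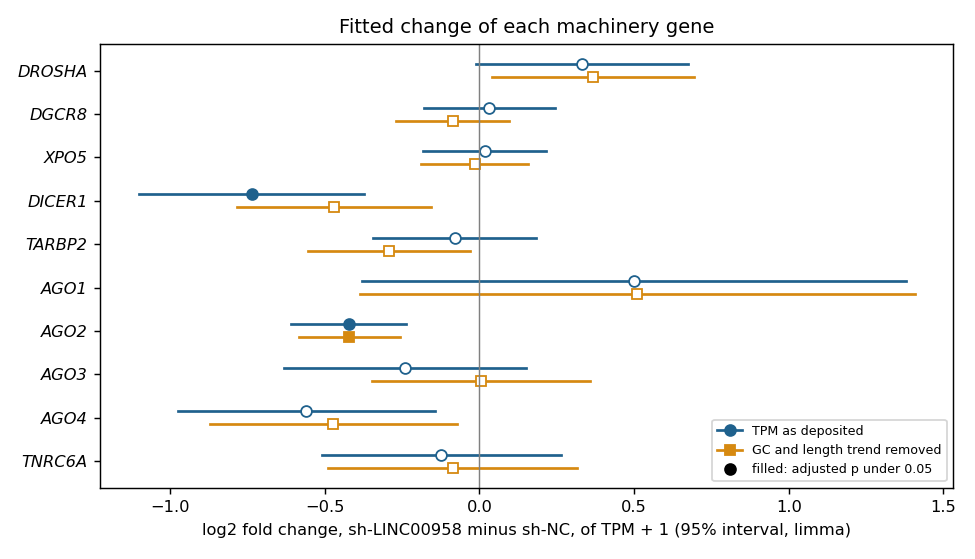
Fitted log2 difference of each gene with its 95% interval (limma), for TPM as deposited (circles) and with the GC and length trend removed (squares), filled where the adjusted p is under 0.05. AGO2 is filled in both, DICER1 only for TPM as deposited.

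The 5 genes with the pattern most like that of each fallen gene over the 5 libraries were found by the root mean square difference of centred log2(TPM + 1) among 12096 genes with a mean TPM of at least 5. For AGO2 these were FADS1 (0.0126), LARP1 (0.0183), PPP3CC (0.0196), PHF14 (0.0203) and TXNL4A (0.0214). FADS1, a fatty acid desaturase, measured 60.8, 62.4 and 59.9 TPM against 83.7 and 83.0 TPM. For DICER1 they were UBE2D1 (0.0236), CARNMT1 (0.0444), C4orf46 (0.0444), HMGN5 (0.0573) and TDRD3 (0.0645). UBE2D1, a ubiquitin-conjugating enzyme, measured 15.7, 21.2 and 17.6 TPM against 34.9 and 28.9 TPM, with replicate 2 the highest of the sh-LINC00958 libraries as for DICER1. All 5 genes like DICER1 have transcripts of 33.8% to 41.9% GC, in the lowest class as DICER1 is, and of the 5 like AGO2 only PHF14 (33.4%) is. With 5 libraries many genes share a pattern by their group difference alone.

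Further genes of the pathway were described from 7 lists of 77 partner genes, of which 71 were tested. Of these, 2 fell, 3 rose and 66 did not pass, beside 5.68% lower and 4.12% higher over all genes. Without adjustment, 22 of the 71 had a p under 0.05, about the 30.7% of all tested genes, and the median log2 difference was -0.12. With the trend over GC content and length removed, 0 were called, and that median was 0.01. Of 16 genes listed under deadenylation, the shortening of the poly(A) tail of targets, the 2 that fell were the CCR4-type catalytic subunits CNOT6 and CNOT6L. CNOT6 measured 54.8, 55.8 and 51.1 TPM against 74.2 and 70.6 TPM (log2 difference -0.42, limma adjusted p = 0.0365), and it stood at -0.14 after the removal. CNOT6L measured 12.1, 13.8 and 18.0 TPM against 26.9 and 26.5 TPM (log2 difference -0.84, limma adjusted p = 0.0383), and it stood at -0.44 after the removal. Both have transcripts in the lowest GC class.

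The partner genes that rose were listed among the loading and RISC associates or under translational repression, decapping and decay. Of 15 loading and RISC associates 2 rose and 0 fell, beside 4.12% higher and 5.68% lower over all tested genes. SND1, which encodes the nuclease Tudor-SN, measured 137.5, 132.9 and 136.5 TPM against 97.8 and 102.4 TPM (log2 difference 0.43, limma adjusted p = 0.0254), and it stood at 0.29 after the GC and length trend was removed. FXR2, a relative of the fragile X protein, measured 46.0, 42.9 and 42.7 TPM against 33.6 and 33.9 TPM (log2 difference 0.37, limma adjusted p = 0.0493), and it stood at 0.17 after the removal. FXR2 lay at the threshold and was not called with a pseudocount of 0.1 (limma adjusted p = 0.0504). In the same list TSN, named after its values were seen, had the lowest fold of all partners at 73.9, 65.8 and 22.9 TPM against 128.4 and 156.3 TPM, and it did not pass (log2 difference -1.53, limma adjusted p = 0.102, 95% limits -2.74 and -0.33). Of 13 genes of translational repression, decapping and decay, EDC3, a decapping enhancer, rose alone, at 51.9, 53.4 and 52.9 TPM against 35.7 and 39.3 TPM (log2 difference 0.48, limma adjusted p = 0.0289), and it stood at 0.36 after the removal. SND1 and EDC3 have transcripts in the third GC class, where 4.85% of genes were called higher, and FXR2 in the highest, where 8.33% were. DCP1A, a decapping cofactor listed with EDC3, stood at 22.6, 25 and 20.5 TPM against 32.5 and 30.8 TPM without passing (limma adjusted p = 0.056).

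In the remaining lists 0 partners passed. The Drosha helicase DDX17 and SRRT, which links the nuclear cap complex to Drosha, had the smallest p of 12 microprocessor partners, with log2 differences of -0.27 and 0.24 (limma adjusted p = 0.0716 and 0.0895), and 5 of the 12 had an unadjusted p under 0.05 (all tested genes, 30.7%). Of 10 tested genes of export, dicing and precursor turnover, the exonuclease gene DIS3L2 (0.46) and the exportin gene XPO1 (-0.43) came nearest (limma adjusted p = 0.0545 and 0.0562, 3 of the 10 at an unadjusted p under 0.05). XPO1 stood at -0.10 after the GC and length trend was removed. LIN28B was listed at 0 in every library and LIN28A averaged under 1 TPM, so these blockers of let-7 processing were not tested. Among 5 GW182 paralogs and LIM scaffolds TNRC6B measured 12.9, 14.9 and 7.20 TPM against 17.9 TPM in both controls (log2 difference -0.63, limma adjusted p = 0.195), LIMD1 had a log2 difference of -0.23 (limma adjusted p = 0.287), and 0 had an unadjusted p under 0.05. The 4 PIWI genes, known from the germline, were below the filter, with PIWIL1 and PIWIL3 listed at 0 throughout.

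**Figure D5:**
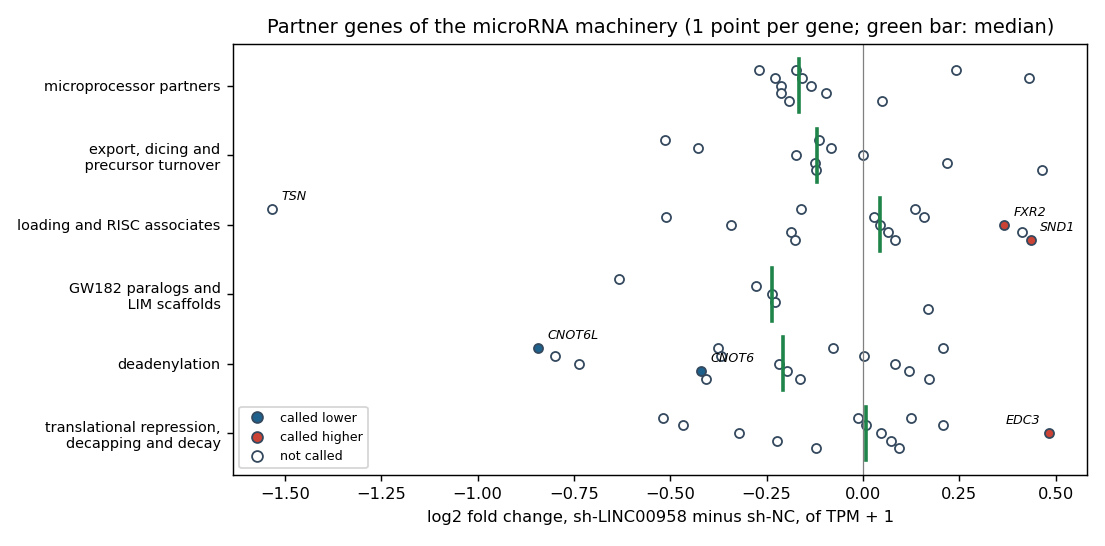
Log2 difference of the 71 tested partner genes in 6 lists, 1 point per gene, filled where called, with a green bar at each list's median. Medians lie between -0.24 and 0.04, and the 5 called genes are 2 of deadenylation (lower), 2 of the loading and RISC associates and 1 of decay (higher).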

How the data were processed

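Gene expression in 5 libraries of Ishikawa cells (3 sh-LINC00958, 2 sh-NC) was given by the authors as TPM, deposited as 1 column per library, with column totals of 999932 to 999947. Per the submitters' processing notes, the tools were Trimmomatic 0.36, HISAT2 2.0, StringTie 1.3.3b and FastQC 0.11.2, on GRCh38. No annotation release or strand setting is given in the sources used here. From these values, log2(TPM + 1) was fitted with limma 3.58.1 in R 4.3.3 (eBayes with trend) for 17049 genes with a mean TPM of at least 1, two-sided, and p-values were adjusted over all of them (Benjamini-Hochberg). The fit was tried on simulated independent libraries with known changes larger than those of AGO2 and DICER1. That trial does not measure how certain the calls here are. GC content and length came from the longest GENCODE 29 transcript, matched by gene ID, and had a value for all 10 machinery genes. Their trend was removed with natural splines of 5 degrees of freedom. Shares and ratios were compared by exact permutation of the libraries, two-sided, with scipy 1.17.1. Of the partner genes, 3 were matched by ID through their current symbols. Named were all 10 genes, LINC00958, every called partner, in each list the 2 partners of smallest p, and the most similar patterns. The alternatives were 10 settings and the omission of each library. Members and lists were chosen with earlier results of these data known. No pair of libraries held identical values.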

Additional observations from a re-analysis of the deposited data

How the results depend on the processing

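Of the 10 machinery genes, 2 were called lower as reported and with pseudocounts of 0.1 and 5, quantile normalization, a mean TPM of at least 5 as filter, and median-ratio scaling. The count was 1 (AGO2) with no filter and with the GC and length trend removed, and 0 without the eBayes trend, with the replicate block, and with the block and the removal together. With 1 library left out it ranged from 0 to 2, and 0 genes were called higher under any setting tried. Without the eBayes trend the limma adjusted p was 0.0591 for AGO2 and 0.0617 for DICER1, and the cause was not tested. Partner genes called lower were 0 with no filter, without the eBayes trend, with the replicate block and with the GC and length trend removed (with or without the block), 5 at a mean TPM of 5 or more, 4 with median-ratio scaling, and 0 to 7 with 1 library left out. Partner genes called higher were 1 with no filter, 0 under the other settings that gave 0 lower, and 0 to 3 with 1 library left out. Over all genes 969 lower and 702 higher became 269 and 207 with no filter, 518 and 371 without the eBayes trend, 2 and 0 with the replicate block, 425 and 364 with the GC and length trend removed, and 0 and 0 with the block and the removal. With 1 library left out they ranged from 6 to 1491 lower and from 10 to 905 higher, the lone control then being assumed to vary like the other group. The replicate numbers are shared by the titles only. The deviations of the same-numbered libraries correlated at 0.00131 and 0.0497, and the block sets sh-LINC00958 replicate 3 aside, as no control carries that number. In that block AGO2 stood at -0.41 and DICER1 at -0.71 (limma adjusted p = 0.127 and 0.151). LINC00958 stood at -0.92 in the block and was not called (limma adjusted p = 0.104), nor with the removal added (limma adjusted p = 0.138). Without sh-LINC00958 replicate 1 it stood at -1.02 and was not called (limma adjusted p = 0.0545). Nor was it called without sh-NC replicate 1 (-1.09) or without sh-NC replicate 2 (-0.89), fits that hold a lone control. With any 1 library left out, the LINC00958 difference lay between -1.09 and -0.89. Among the machinery genes that were not called, the sign turned for AGO3 (0.00 with the GC and length trend removed, 0.12 with the block added), for DGCR8 (-0.09 under both, and -0.03 without sh-NC replicate 1) and for XPO5 (-0.02 with the removal, and -0.03 without sh-LINC00958 replicate 2). It turned as well for PHF14, at 0.14 with the GC and length trend removed and 0.12 with the block added, and for the AGO2 to AGO4 log2 ratio, which ranged from -0.10 to 0.38 with 1 library left out and was -0.10 without sh-NC replicate 2. The ranges with 1 library left out were -10.2 to -5.08 percentage points for the AGO2 share, -1.34 to -0.51 for the log2 ratio of AGO2 to AGO1, -0.30 to -0.12 for AGO2 to AGO3, and -0.84 to -0.47 for DICER1 to TARBP2. The depth is unknown, so no limit from counting can be given for the low Argonautes.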
